A study of Mus musculus with 6 samples.

Results

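A set of 30 genes of the primitive endoderm and its derivatives was followed in mouse induced pluripotent stem cells (iPSCs) with and without the microRNA miR-34a. The 30 genes were given by name, and all 30 were found among the 41388 gene rows of the count table. They comprise 7 transcriptional regulators, 4 receptors and signalling proteins, 5 proteins of endocytic uptake, 7 basement membrane genes and 7 secreted carriers. Poly(A) RNA was sequenced in 6 libraries, 3 from miR-34a-/- lines and 3 from wild-type lines, all of C57BL/6 strain. The lines of both genotypes came from fibroblasts of littermate E13.5 embryos, carried retroviral Oct4, Sox2 and Klf4, and were kept on irradiated fibroblast feeders. Each line was expanded from 1 picked colony, so it is a clone of reprogrammed cells, and the sources used here do not say which lines share an embryo.

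The primitive endoderm is the layer of the blastocyst that faces the cavity. Fibroblast growth factor signalling and the GATA factors set it apart from the NANOG-positive epiblast, and SOX17, SOX7 and PDGFRA then mark it. It gives rise to parietal endoderm, which lays down a thick basement membrane of laminin, nidogen and collagen IV, and to visceral endoderm, which takes up maternal protein through cubilin, amnionless and megalin and secretes serum carriers. Epiblast-like cells in culture express some of these genes, above all those of the basement membrane, without being endoderm.

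Total counts per library ranged from 8432597 to 29654855. Levels are given as scaled CPM, the share of a library's gene counts in ppm, in the order of replicates 1 to 3, and means as mean ± SD over n = 3 lines. Changes are log2 ratios, knockout relative to wild type, with SE from 1 edgeR fit across 14717 genes, and a gene was called at an adjusted p under 0.05. The Mir34a hairpin gene had 1 count in the knockout and 2 counts in the wild-type libraries and gave no check of the labels. Summed levels of the Y-linked genes Ddx3y, Eif2s3y, Kdm5d and Uty were 38.2 to 41.1 CPM in the wild-type and 0.122 to 0.357 CPM in the knockout libraries. Genotype and the presence of Y-linked RNA therefore coincided in all 6 libraries and cannot be told apart. The pluripotency gene Nanog, which is not among the retroviral factors, was high in both genotypes, at 547 ± 30.7 CPM in knockout lines and 441 ± 6.89 CPM in wild-type lines. In these bulk samples a change in the number of endoderm-like cells and a change of RNA per cell cannot be told apart.

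The deleted microRNA and the letters that its seed would pair with are shown because the knockout removes this sequence. Among the RefSeq sequences (GRCm38.p6) used here, 4 mature mouse microRNAs share bases 2 to 8 of miR-34a-5p, which stand in capitals. Other microRNAs with this seed were not sought beyond these sequences, so the 4 need not be all of them. The miR-34a-5p sequence lies at chr4:150068473-150068494 on the plus strand.
mmu-miR-34a-5p: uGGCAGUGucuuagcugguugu
mmu-miR-34b-5p: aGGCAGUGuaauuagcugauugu
mmu-miR-449a-5p: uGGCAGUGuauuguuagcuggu
mmu-miR-449c-5p: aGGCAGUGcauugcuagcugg

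The complement of the seed, CACTGCC, was searched on the sense strand of the 3′ untranslated region of 1 annotated transcript per gene. It occurred in 3 of 29 members with such a region (10.3%), a count that includes members below the count filter. Among tested genes alone it occurred in 2043 of 13255 (15.4%). The regions of those genes were longer, with a median of 946 bases against 637 bases for the 29 members. The 3 members with a match were Hnf4a with 2 matches and Pdgfra and Dab2 with 1 match each. All 3 were higher in the knockout, as described for each gene further on. They are among the 14 of 25 tested members that were called higher. A part of the matches in these changes was not tested. Across all tested genes the median log2 fold change was 0.025 with a match and 0.003 without. This difference was not tested. The 4 matches, with the pairing letters in capitals, lie at chr2:163570315-163570337 and chr2:163572793-163572815 for Hnf4a, chr5:75197918-75197940 for Pdgfra and chr15:6439127-6439149 for Dab2, all on the plus strand of mm10.
Hnf4a first match: ctgtcttcCACTGCCtggactcc
Hnf4a second match: cccaccatCACTGCCcaaggggg
Pdgfra match: agctgtatCACTGCCtttgttta
Dab2 match: taatatcaCACTGCCttgagtca

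Of the 30 endoderm genes, 25 passed the count filter, 14 of them were called higher and 6 lower in the knockout, and 5 were not called. Over all genes tested, 50.5% were called, 26.5% higher and 24% lower. The groups did not overlap in 56% of all genes tested, with the knockout above in 29.2% and below in 26.9%. Of the 25 endoderm genes tested, 14 lay above and 7 below in every knockout library. The median log2 fold change was 0.27 over the 25 tested genes and 0.006 over all genes tested. The filter level was 0.564 CPM. Sox17, Hnf4a and Srgn exceeded it in no wild-type library, so that their inclusion rested on the side where they were high, and Stra6 exceeded it in no knockout library. Among the 20 tested genes past that level in all 6 libraries, 10 were higher, 6 were lower and 4 were not called, with a median of 0.20. A called change of at least 2-fold was seen for 6 of these 20 genes. It was seen for 10 of the 25 tested endoderm genes and for 10.3% of all genes tested. The 10.3% was not restricted to genes past the filter level in all 6 libraries. The 30 genes thus did not move together. The plot of levels by library shows that the regulators and uptake receptors that were higher in the knockout lay at low levels, while the highly expressed basement membrane genes shifted by small amounts.

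**Figure D1:**
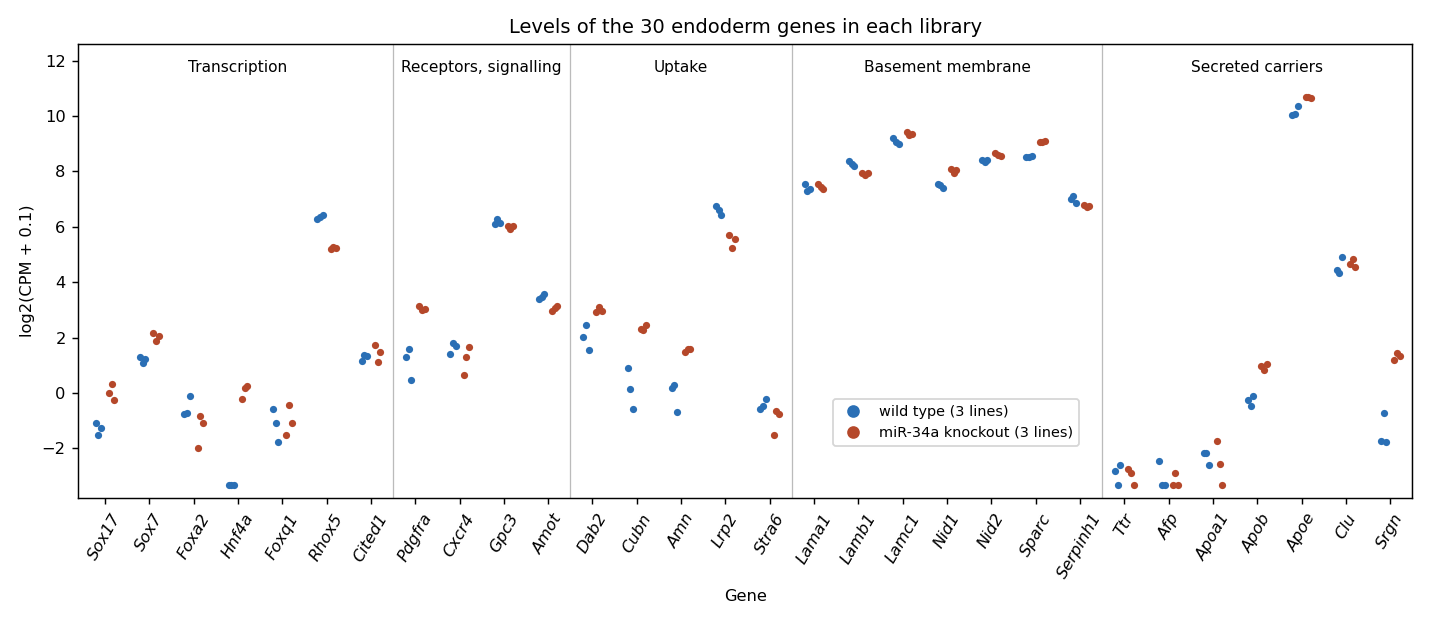
Levels of the 30 genes as log2(CPM + 0.1), grouped by role, with 1 point per library (wild type left, knockout right of each gene). Hnf4a has 0 counts in the 3 wild-type libraries, Cubn and Amn separate by genotype at low levels, Lrp2 and Rhox5 are higher in wild type, and Ttr, Afp and Apoa1 lie at the bottom in both genotypes.

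Among the 7 transcriptional regulators Sox17, Sox7 and Hnf4a were higher and Rhox5 was lower in the knockout, and Hnf4a was counted in the knockout libraries alone. Hnf4a encodes a nuclear receptor that drives the visceral endoderm and liver programmes. It had 15, 29 and 9 counts in knockout replicates 1 to 3 and 0 in each wild-type library. Taking 3 counts over the 3 wild-type libraries as the floor, it was at least 15.2-fold higher (edgeR adjusted p = 3.59e-06). Its knockout level of 0.966 ± 0.182 CPM was still low.

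Sox17 and Sox7, related HMG-box factors that mark primitive endoderm, were both higher. Sox17 was at 0.912, 1.14 and 0.735 CPM in knockout lines and 0.369, 0.250 and 0.322 CPM in wild-type lines, resting on 56 and 16 counts in all. The groups did not overlap, and the log2 fold change was 1.55 (SE 0.37, edgeR adjusted p = 0.00159). Sox7 was at 4.36, 3.61 and 4.04 CPM in knockout lines and 2.38, 2.00 and 2.25 CPM in wild-type lines. It rose by 0.81 (SE 0.18, edgeR adjusted p = 0.000883), again with no overlap.

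Foxa2 and Foxq1, forkhead factors, stayed below the count filter. Foxa2, a regulator of visceral and definitive endoderm, had 19 counts over the knockout libraries and 29 over the wild-type ones. Its levels of 0.152, 0.464 and 0.367 CPM lay just under the wild-type levels of 0.492, 0.500 and 0.837 CPM. With no filter beyond 1 count the log2 fold change of Foxa2 was -0.86 and did not pass (edgeR adjusted p = 0.163). Foxq1 had 26 and 20 counts, and its groups overlapped.

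Rhox5, an X-linked homeobox gene expressed in extraembryonic lineages, fell. It was at 36.8, 38.5 and 37.5 CPM in knockout lines and 78.4, 81.0 and 84.9 CPM in wild-type lines. The replicates of each genotype lay close together, and the wild-type mean was 2.16-fold higher (log2 fold change -1.11, SE 0.06, edgeR adjusted p = 2.55e-11). Cited1, an X-linked transcriptional coactivator found in visceral endoderm and trophoblast, was at 3.24, 2.07 and 2.69 CPM against 2.13, 2.50 and 2.45 CPM. Its groups overlapped, and the log2 fold change of 0.18 was not called (edgeR adjusted p = 0.515).

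Other endoderm regulators, taken from a list of 12 genes outside the 30, included more that rose than fell. Of 11 tested, 6 rose, 1 fell and 4 were not called, where 26.5% of all genes tested rose and 24% fell. With the replicate block or with GC trends removed, 2 of the 11 fell. The median log2 fold change of the 11 was 0.23. Gata4, the zinc finger factor that with GATA6 specifies primitive endoderm, was at 5.62, 6.32 and 6.37 CPM in knockout lines and 1.76, 1.62 and 2.00 CPM in wild-type lines (edgeR adjusted p = 7.04e-08 for a log2 fold change of 1.74, SE 0.17). Gata6 rose by 1.16 (SE 0.23, edgeR adjusted p = 0.000338), from 1.32 ± 0.254 to 2.78 ± 0.577 CPM. Eomes, a T-box factor of trophoblast, streak and visceral endoderm, fell by 0.80 on the log2 scale (edgeR adjusted p = 1.19e-05). It is counted again in the trophoblast and mesendoderm lists further on.

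GATA letters were searched in promoters because Gata4 and Gata6 differed. The words sought were AGATAA, the related word AGATAG, the word TGATAA and the related word TGATAG, on both strands, from 250 bases before to 50 bases after the RefSeq start. RefSeq windows were matched for 22 of the 30 genes, with 34 windows. A match lay in 6 of the 34 windows (17.6%) and in 29.8% of all 32851 promoter windows. The 6 windows belong to Hnf4a, Dab2 and Apoe, which rose, Stra6, which was not called, and Foxa2 and Apoa1, which were not tested. The windows of Pdgfra, Cubn, Amn, Apob, Srgn, Nid1 and Sparc, which also rose, held no match. The promoters of 2 genes that rose are shown with the matches in capitals, the first Hnf4a window at chr2:163506607-163506906 and the first Dab2 window at chr15:6299539-6299838, both on the plus strand of GRCm38.p6. The Hnf4a window holds 1 match, before the start. The Dab2 window holds 2, before and after the start, the second of them read from the other strand. The second RefSeq window of each gene held no match.
Hnf4a promoter: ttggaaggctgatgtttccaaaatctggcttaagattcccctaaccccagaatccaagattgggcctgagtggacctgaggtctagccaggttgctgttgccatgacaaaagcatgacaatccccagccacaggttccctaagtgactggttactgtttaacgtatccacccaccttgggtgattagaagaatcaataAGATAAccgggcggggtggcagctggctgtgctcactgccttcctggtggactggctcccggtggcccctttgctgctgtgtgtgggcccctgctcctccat
Dab2 promoter: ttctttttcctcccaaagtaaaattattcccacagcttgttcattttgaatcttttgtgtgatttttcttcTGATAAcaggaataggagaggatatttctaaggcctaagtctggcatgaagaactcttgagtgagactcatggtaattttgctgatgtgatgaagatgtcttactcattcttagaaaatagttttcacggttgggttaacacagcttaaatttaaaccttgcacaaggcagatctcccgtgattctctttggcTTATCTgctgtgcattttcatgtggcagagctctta

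Among receptors and signalling proteins, Pdgfra rose and the X-linked Gpc3 and Amot fell. Pdgfra encodes the receptor for platelet-derived growth factor A, an early surface marker of primitive endoderm that fibroblasts carry as well. It was at 8.66, 7.97 and 8.08 CPM in knockout lines and 2.34, 2.87 and 1.29 CPM in wild-type lines. Every knockout library was above every wild-type library, with a mean of 8.24 ± 0.372 against 2.17 ± 0.807 CPM and a log2 fold change of 1.98 (SE 0.19, edgeR adjusted p = 4.93e-08).

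Gpc3, a glypican that binds growth factors at the cell surface, was at 64.9, 61.2 and 65.7 CPM in knockout lines and 69.2, 77.1 and 70.5 CPM in wild-type lines. The groups did not overlap, but the difference was small, with a log2 fold change of -0.18 (SE 0.06, edgeR adjusted p = 0.0257). Its call was lost with DESeq2 (adjusted p = 0.0514), with library GC trends removed (0.0724), and without knockout replicate 2 (0.134) or wild-type replicate 2 (0.125). Amot, which encodes angiomotin, a scaffold of the Hippo pathway needed for visceral endoderm movement, was at 7.65, 8.36 and 8.70 CPM against 10.5, 11 and 11.9 CPM. It fell by 0.44 on the log2 scale (SE 0.11, edgeR adjusted p = 0.0030), with no overlap.

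Cxcr4, the chemokine receptor used to mark definitive endoderm, was at 1.47, 2.36 and 3.06 CPM in knockout lines and 2.54, 3.37 and 3.15 CPM in wild-type lines. The groups overlapped, and the log2 fold change of -0.43 (SE 0.23) was not called (edgeR adjusted p = 0.126). Without knockout replicate 3, its highest knockout library, it was called lower (log2 fold change -0.57, edgeR adjusted p = 0.0427).

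The FGF arm, which instructs primitive endoderm, was taken as a list of 15 genes, all tested. Of these 7 fell, 4 rose and 4 were not called, with a median log2 fold change of -0.18. The ligand Fgf4 rose from 239 ± 6.27 to 329 ± 5.73 CPM (edgeR adjusted p = 3.17e-07 for a log2 fold change of 0.46). Fgfr2, the receptor enriched in primitive endoderm, fell from 32.1 ± 0.496 to 10.02 ± 0.906 CPM (edgeR adjusted p = 9.53e-12 for a log2 fold change of -1.67, SE 0.09). Fgfr1, the receptor shared with the epiblast, was at 106 ± 2.35 and 106 ± 5.05 CPM (edgeR adjusted p = 0.985 for a log2 fold change of 0.001). The kinase gene Mapk3 and the ETS factor gene Etv5 fell by 0.46 and 0.37 on the log2 scale. Of the other 2 receptors, named after their values were seen, Fgfr4 rose by 1.15 (edgeR adjusted p = 3.75e-05). Fgfr3 fell by 0.47 on the log2 scale (edgeR adjusted p = 0.011). Fgfr2 therefore moved opposite to Pdgfra, Gata4 and Sox17, while Fgfr4 moved in the same direction as these 3 genes.

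The 4 X-linked genes of the set are shown against their neighbours because the X chromosome as a whole was shifted. Of 327 X-linked genes above 5 CPM, 202 were higher and 53 lower, with a median log2 fold change of 0.37. Within 5 Mb of Rhox5 the median of 22 such neighbours was 0.29, and all 22 lay above Rhox5 at -1.11. Rhox6 and Rhox9, named after their values were seen, are 2 of these neighbours in the same homeobox cluster and also fell, by 0.99 and 0.89 on the log2 scale. Rhox1 and Rhox13, at low levels in the same cluster, rose by 1.26 and 1.52. Members of this family resemble each other, and the sources used here do not say how reads mapping to several places were counted. Around Gpc3 the median of 27 neighbours was 0.44, and 24 lay above Gpc3. The 7 neighbours of Amot had a median of -0.47, next to -0.44 for Amot. Around Cited1 the 36 neighbours had a median of -0.06.

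**Figure D2:**
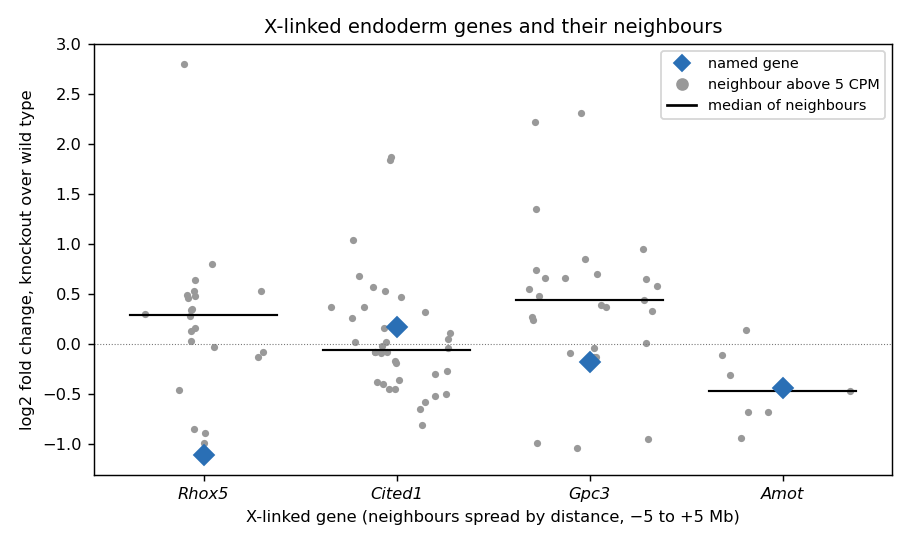
Log2 fold changes (knockout over wild type) of the 4 X-linked endoderm genes (diamonds) and of neighbouring X genes above 5 CPM within 5 Mb (grey, spread by distance from the gene), with the median of the neighbours as a line. Rhox5 lies below all 22 of its neighbours and Gpc3 below 24 of 27, while Amot lies near the median of its 7.

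The uptake machinery of the visceral endoderm split by gene. Cubn and Amn, which encode the peripheral receptor cubilin and its membrane anchor amnionless, and the adaptor Dab2 rose. Lrp2, which encodes their partner megalin, fell. Cubn was at 4.86, 4.72 and 5.39 CPM in knockout lines and 1.76, 1.00 and 0.579 CPM in wild-type lines. No libraries overlapped, and the log2 fold change was 1.99 (SE 0.25, edgeR adjusted p = 3.82e-06). Without wild-type replicate 1, the highest wild-type library, it was 2.74. Amn was at 2.68, 2.89 and 2.94 CPM against 1.02, 1.13 and 0.515 CPM and rose by 1.69 (SE 0.25, edgeR adjusted p = 1.77e-05). For both genes wild-type replicate 3 was the lowest library, and the spread was wider in the wild type than in the knockout.

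Dab2, a clathrin adaptor needed for endoderm polarity and uptake, was at 7.45, 8.501 and 7.72 CPM in knockout lines and 3.97, 5.37 and 2.83 CPM in wild-type lines. It rose by 1.04 (SE 0.17, edgeR adjusted p = 4.16e-05), with no overlap. Lrp2 was at 51.5, 37.5 and 47.4 CPM in knockout lines and 109, 96.2 and 86.5 CPM in wild-type lines. The wild-type mean of 97.1 ± 11.1 CPM was 2.16-fold above the knockout, and the log2 fold change was -1.11 (SE 0.14, edgeR adjusted p = 0.000491). Per kilobase of exon, Lrp2 was the more abundant receptor gene in both genotypes. It stood at 2.72 in knockout and 5.81 in wild-type lines, against 0.334 and 0.0746 for Cubn and 1.54 and 0.482 for Amn (CPM per kilobase). Cubn and Lrp2 thus changed in opposite directions at each end of a wide range of levels.

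Stra6, the receptor for retinol-binding protein, was near the count filter at 0.253, 0.536 and 0.490 CPM in knockout lines and 0.574, 0.625 and 0.772 CPM in wild-type lines. Its log2 fold change of -0.59 (SE 0.39) was not called (edgeR adjusted p = 0.221), although the groups did not overlap.

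Partners of these receptors were read from a list of 14 endocytic genes, all tested, of which 10 rose, 1 fell and 3 were not called. The median log2 fold change was 0.41. Lrpap1, the chaperone of megalin and related receptors, rose from 150 ± 1.11 to 239 ± 11.2 CPM (edgeR adjusted p = 2.97e-09 for a log2 fold change of 0.67, SE 0.05), opposite to Lrp2. Lrp1, a megalin relative named after its values were seen, rose from 108 ± 12.7 to 226 ± 22.5 CPM (log2 fold change 1.06). Clcn5, a chloride exchanger of endosomes, rose by 1.72 and the phosphatase gene Ocrl by 0.55. Both are X-linked, and the medians of their neighbours were 1.47 and 0.38. The clathrin adaptor subunit gene Ap2b1 fell by 0.46 on the log2 scale. Without knockout replicate 3 the genes of this list called lower numbered 2.

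**Figure D3:**
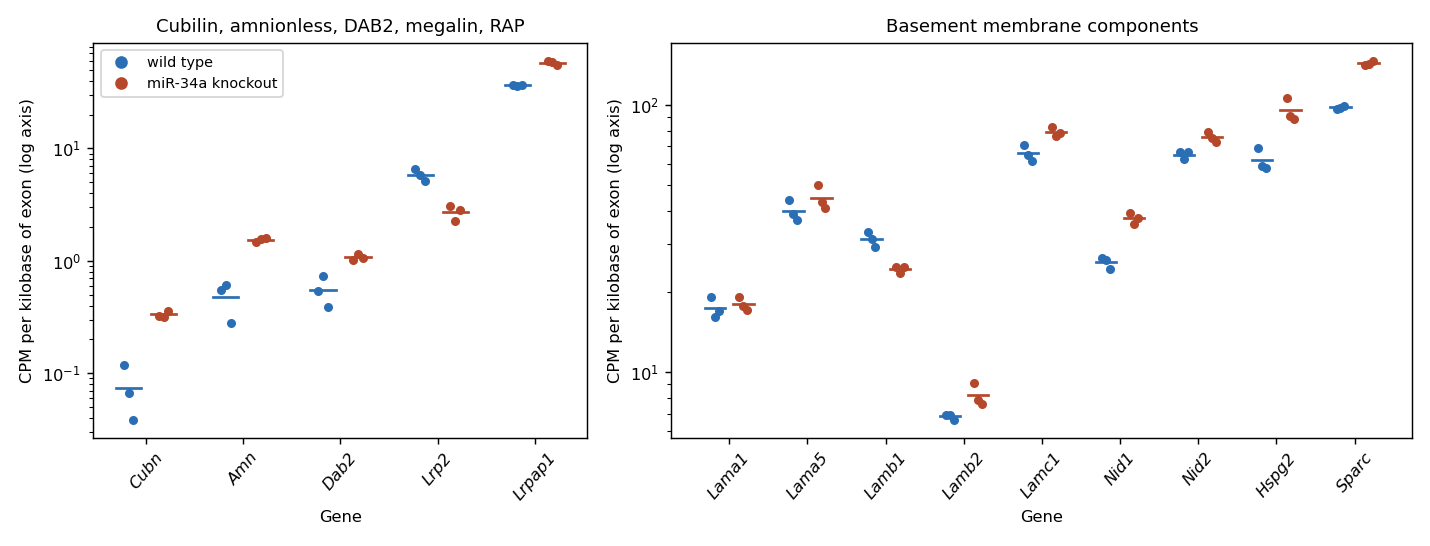
Levels per kilobase of exon (log axis) for genes of cubilin-megalin uptake (left) and of the basement membrane (right), with 1 point per library and a line at the mean of 3. Cubn, Amn, Dab2 and Lrpap1 are higher and Lrp2 lower in the knockout, and Lamb1 is lower while Lamc1, Nid1, Nid2, Hspg2 and Sparc are higher.

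Basement membrane genes were strongly expressed in both genotypes and differed by less than 2-fold. Of the 7, Lamc1, Nid1, Nid2 and Sparc rose, Lamb1 and Serpinh1 fell, and Lama1 was not called. Lama1, Lamb1 and Lamc1 encode the 3 chains of laminin-111, the main laminin of the early embryo. Lama1 was at 185, 172 and 165 CPM in knockout lines and 185, 156 and 163 CPM in wild-type lines, and the groups overlapped (log2 fold change 0.05, SE 0.06, edgeR adjusted p = 0.557). Lamb1 was at 245, 233 and 245 CPM against 330, 312 and 291 CPM and fell by 0.37 on the log2 scale (SE 0.06, edgeR adjusted p = 1.75e-05). Lamc1 was at 683, 632 and 646 CPM against 586, 534 and 509 CPM and rose by 0.27 (SE 0.06, edgeR adjusted p = 0.000963). The 3 chains of 1 trimer therefore showed 3 different outcomes. Per kilobase, the order in both genotypes was Lamc1 above Lamb1 above Lama1, at 79.0, 24.3 and 17.97 in the knockout and 65.7, 31.4 and 17.4 in the wild type (CPM per kilobase).

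Nidogens link laminin to collagen IV. Nid1 was at 274, 248 and 263 CPM in knockout lines and 185, 182 and 168 CPM in wild-type lines, a rise of 0.55 (SE 0.06, edgeR adjusted p = 1.3e-07). Nid2 was at 410, 387 and 376 CPM against 343, 323 and 343 CPM, a rise of 0.22 (SE 0.05, edgeR adjusted p = 0.00228). Neither gene overlapped between genotypes, and Nid1 differed by the larger fold.

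Sparc, a collagen-binding matrix protein abundant in parietal endoderm and also in fibroblasts, was at 534, 540 and 553 CPM in knockout lines and 366, 368 and 375 CPM in wild-type lines. It rose by 0.55 (SE 0.05, edgeR adjusted p = 3.01e-08). Serpinh1, the collagen chaperone HSP47, was at 111, 104 and 107 CPM against 127, 137 and 117 CPM and fell by 0.24 on the log2 scale (SE 0.06, edgeR adjusted p = 0.00234). The 7 basement membrane genes thus did not share a direction.

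Other basement membrane genes and their receptors were read from a list of 23, of which 19 were tested, 5 rose, 5 fell and 9 were not called. With the replicate number as a block 8 rose and 8 fell. Their median log2 fold change was -0.03. The collagen IV genes Col4a1 and Col4a2, partners of nidogen in parietal endoderm, had log2 fold changes of 0.19 and 0.16 and were not called (edgeR adjusted p = 0.33 and 0.24). Itgb4 and Lama3, subunits of the integrin and laminin of hemidesmosomes, rose by 1.45 and 0.90. Itga3 and Itga1, laminin and collagen receptor subunits, fell by 0.62 and 1.61 on the log2 scale. Hspg2, which encodes perlecan and was named after its values were seen, rose from 885 ± 83.7 to 1361 ± 138 CPM (edgeR adjusted p = 1.18e-05 for a log2 fold change of 0.62).

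Of 7 secreted carriers of the visceral endoderm, 3 were below the count filter, Apob, Apoe and Srgn rose, and Clu was not called. Ttr, Afp and Apoa1, which encode the thyroxine carrier transthyretin, alpha-fetoprotein and the main protein of high-density lipoprotein, were hardly seen in either genotype. Ttr had 2 counts over the 3 libraries of each genotype, Afp had 1 in knockout and 2 in wild-type libraries, and Apoa1 had 6 and 5. For scale, 3 counts over the group correspond to 0.0537 CPM in knockout lines and 0.0626 CPM in wild-type lines. A small difference in these 3 genes was not detectable at this depth. Hnf4a, with 0 wild-type counts, was called higher on 53 knockout counts, and none of these 3 genes came near that number.

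Apob, the core protein of low-density lipoprotein that visceral endoderm secretes, was at 1.87, 1.68 and 1.96 CPM in knockout lines and 0.737, 0.625 and 0.837 CPM in wild-type lines. It rose by 1.26 (SE 0.26, edgeR adjusted p = 0.000587), with no overlap. Apoe, a lipid carrier also made by pluripotent cells, was the most abundant of the 30 genes per kilobase in both genotypes, at 767 in knockout and 538 in wild-type lines (CPM per kilobase). It was at 1664, 1628 and 1625 CPM against 1040, 1083 and 1326 CPM and rose by 0.51 (SE 0.08, edgeR adjusted p = 4.42e-05). Wild-type replicate 3 lay nearest to the knockout libraries.

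Clu, the extracellular chaperone clusterin, was at 24.97, 28.3 and 23.3 CPM in knockout lines and 21.8, 20.2 and 30.2 CPM in wild-type lines. The highest library of all was wild-type replicate 3, and the groups overlapped (log2 fold change 0.09, SE 0.14, edgeR adjusted p = 0.618). Without that library Clu was called higher (log2 fold change 0.28, edgeR adjusted p = 0.0219). Srgn encodes serglycin, the core protein of a secretory granule proteoglycan that parietal endoderm and blood cells make. It was at 2.18, 2.61 and 2.45 CPM in knockout lines and 0.205, 0.500 and 0.193 CPM in wild-type lines, resting on 136 and 12 counts. Its log2 fold change was 3.23 (SE 0.34, edgeR adjusted p = 1.79e-07), and every knockout library was above every wild-type library.

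**Figure D4:**
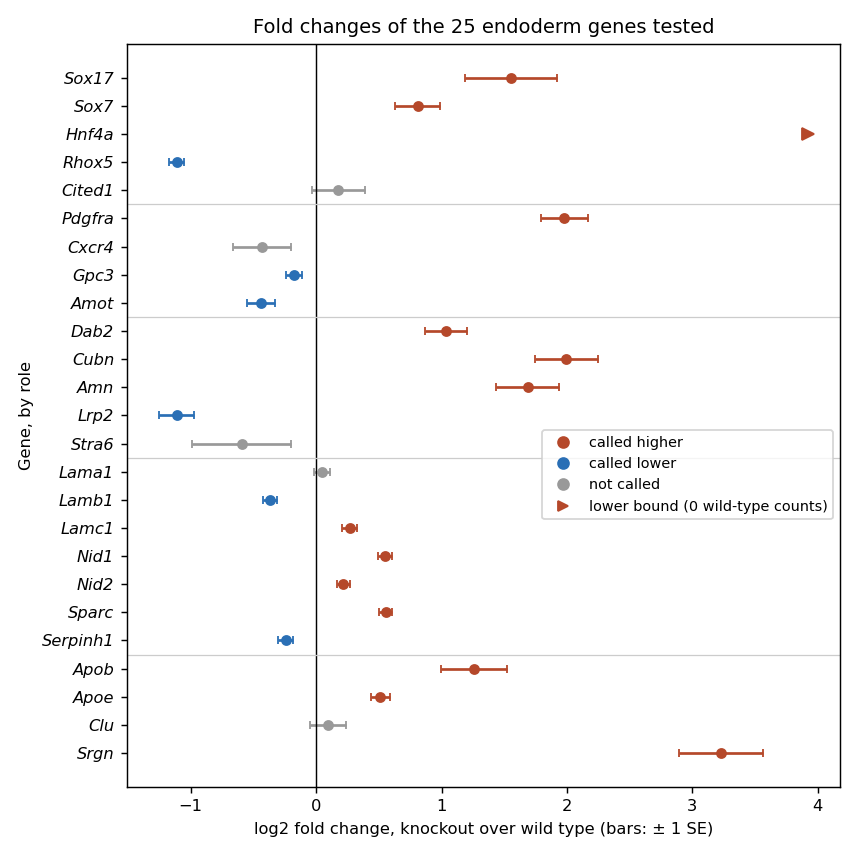
Log2 fold changes (knockout over wild type) with SE for the 25 endoderm genes that passed the count filter, ordered by role and coloured by call, with Hnf4a as a lower bound. Pdgfra, Cubn, Amn and Srgn lie above 1.5, Rhox5 and Lrp2 both lie at -1.11, and the basement membrane genes lie between -0.37 and 0.55.

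Further visceral endoderm products, a list of 22 genes, gave 12 tested, of which 8 rose, 1 fell and 3 were not called. Their median log2 fold change was 0.42. The count called higher was 4 without knockout replicate 2, 5 without wild-type replicate 1 and 4 with DESeq2. The count called lower was 3 when knockout replicate 3 was left out, and 2 when wild-type replicate 3 was, as also with the replicate block. Vil1, which encodes the microvillar protein villin, rose from 0.779 ± 0.283 to 2.16 ± 0.282 CPM (edgeR adjusted p = 0.000255 for a log2 fold change of 1.36). Soat2, an enzyme that esterifies cholesterol for lipoproteins, rose by 1.13, and the Nodal antagonist gene Lefty1 by 0.29. Apoa2, a further high-density lipoprotein gene, fell by 0.82 on the log2 scale (edgeR adjusted p = 1.49e-06). The other 10 genes of this list, among them Alb, Fabp1 and Cer1, stayed below the count filter, and Fabp1 had 0 counts in all 6 libraries.

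Genes of the parietal endoderm and its keratins were read from a further list of 12, all tested. Of these 6 fell, 2 rose and 4 were not called, with a median log2 fold change of -0.34. Krt8, Krt18 and Krt19, keratins of simple epithelia including endoderm and trophoblast, fell by 1.19, 1.16 and 0.97 on the log2 scale. Krt8 was at 119 ± 12.8 CPM in wild-type lines and 52.2 ± 4.01 CPM in the knockout (edgeR adjusted p = 6.97e-10). Tfpi, a coagulation inhibitor, fell by 0.44. Neither of the 2 that rose was called without knockout replicate 2, 1 gene was called higher without knockout replicate 1, and 4 were with the replicate block.

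Markers of other cell types were read in the same way, against the 50.5% of all tested genes that were called. Fibroblast markers, which feeders could carry, gave 19 tested of 20, of which 13 fell, 2 rose and 4 were not called, with a median log2 fold change of -0.74. Their summed level was 2520 to 2770 CPM in knockout lines and 3040 to 3310 CPM in the wild-type libraries. Most of it was Fn1, at 2015 ± 78.9 and 2134 ± 17.3 CPM, which was not called. Col1a1 and Thy1 fell by 0.99 and 0.59 on the log2 scale, and Postn, Acta2 and Tagln by 3.03, 1.81 and 1.81. S100a4 rose by 1.62. Called higher was 1 gene without knockout replicate 3, wild-type replicate 1 or wild-type replicate 3, and likewise with DESeq2 or with GC trends removed. Pdgfra and Sparc, which fibroblasts express, were higher in the knockout, as were 2 of these 19 markers, S100a4 and Twist1. Lamb1 and Serpinh1 were lower, as were 13 of the markers. A part of fibroblast RNA in the results of Pdgfra, Sparc, Lamb1 and Serpinh1 was not tested.

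Trophoblast markers gave 10 tested of 12, with 3 lower, 2 higher and 5 not called and a median log2 fold change of -0.005. Tfap2c fell by 0.97 and Cdx2 by 1.54 on the log2 scale, Hand1 rose by 1.90, and their summed level was 166 to 178 against 247 to 263 CPM. Most of that gap was Tfap2c, at 83.5 ± 2.09 and 164 ± 8.80 CPM. Without knockout replicate 2 or wild-type replicate 2, and with DESeq2 or GC trends removed, 1 was called higher. Rhox5, which trophoblast also expresses, was lower together with this sum, whose part in that result was not tested. Mesendoderm markers gave 7 tested of 10, with 4 lower and 3 not called and a median log2 fold change of -0.80. T, Fgf8 and Wnt3 fell by 2.55, 2.26 and 1.00 on the log2 scale. Gsc and Evx1, at log2 fold changes of 0.40 and 0.35, and Trh, at 0.04, were not called. Their summed level, most of it Trh, was 618 to 639 CPM in knockout lines and 567 to 703 CPM in wild-type lines.

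Blood markers, listed because Srgn and Cxcr4 are blood cell genes, gave 8 tested of 12, with 4 higher, 1 lower and 3 not called and a median log2 fold change of 0.53. Cd34 rose by 1.68, Lmo2 by 1.62, the X-linked Gata1 by 1.49, with a median of 1.47 for its neighbours, and Kdr fell by 0.85 on the log2 scale. The summed level was 94.4 to 97.7 CPM in knockout lines and 79.4 to 85.3 CPM in wild-type lines, most of it Pecam1. The defining blood gene Ptprc had at most 2 counts in any library, and Hba-x had 0 counts in all 6 libraries. Of 10 pluripotency markers, 9 rose and 1, Lin28a, fell by 0.75 on the log2 scale, with a median of 0.35. Tdgf1 and Klf4 rose by 0.56 and 0.51, and Nanog, the epiblast factor that opposes the GATA factors, rose by 0.31. Counts of Klf4, Sox2 and Pou5f1, all among the 9 that rose, can hold transcripts of the retroviral copies.

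**Figure D5:**
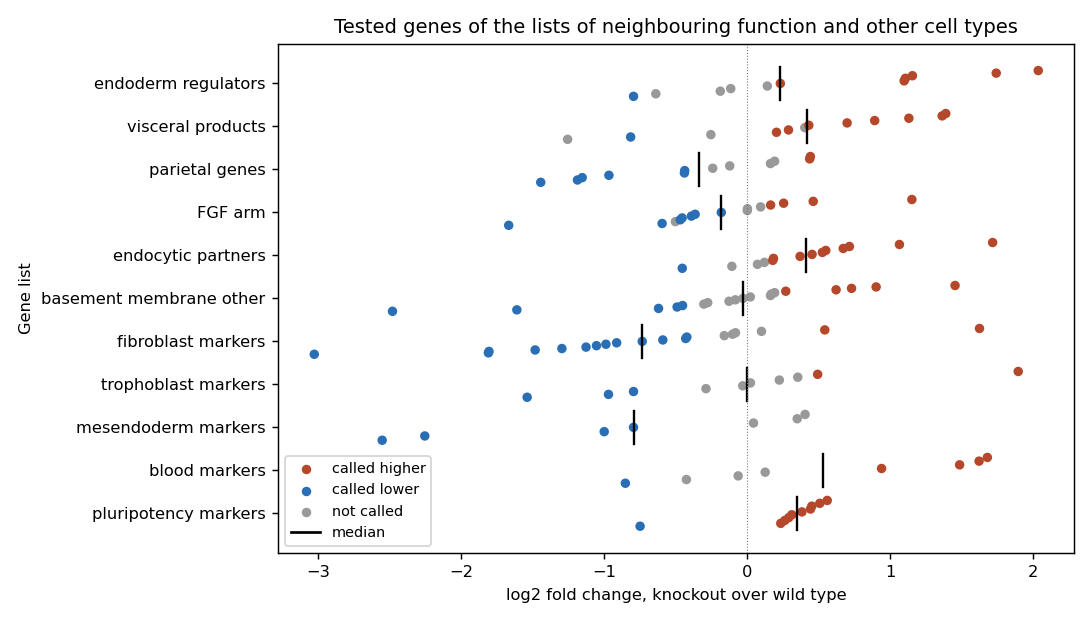
Log2 fold changes (knockout over wild type) of the tested genes in 11 lists that exclude the 30 endoderm genes, coloured by call, with the median of each list as a line. Visceral products and endocytic partners have medians of 0.42 and 0.41, parietal genes -0.34 and fibroblast markers -0.74.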

How the data were processed

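Raw counts per Ensembl gene or repeat family were deposited for 6 libraries. Per the submitters' processing notes, TopHat2 2.0.11, featureCounts 1.4.5 and mm10 were used. The labels call the libraries strand-specific, and the sources used here do not give the strand and multi-mapping settings. The 902 repeat rows (5.4% to 6.16% of counts) and 6 columns of a repeat run that match no label were left out. GENCODE M21 (same build) gave symbols for 40254 gene rows and exon lengths.

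Genes were filtered (filterByExpr), scaled (TMM) and tested with edgeR 4.0.16 (robust quasi-likelihood F test, two-sided, no covariate, Benjamini-Hochberg over all genes). SE is the log2 fold change over the square root of F. The steps were tested on simulated counts. Alternatives used DESeq2 1.42.0, limma 3.58.1 voom, other scalings and filters, a replicate block, GC trend removal and each library left out. The 30 genes and 11 lists were chosen with earlier results of these data known. Named are the 30 genes, up to 4 genes of smallest p per list and 12 fixed genes. Others were chosen after their values were seen.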

Additional observations from a re-analysis of the deposited data

How the results depend on the processing

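Under 16 alternatives, 6 of them leaving out 1 library each, the endoderm genes called higher numbered 12 to 15 (14 in the results above) and those called lower 5 to 7 (6 above). Of 394 values of single endoderm genes under these alternatives, 388 kept their direction where called and their side of the threshold. The exceptions were Gpc3, Clu and Cxcr4, given above. With at least 1 CPM in 3 samples, Sox17, Hnf4a and Stra6 were not tested. Deviations of same-numbered libraries correlated at 0.088, -0.02 and 0.11, and those of differently numbered libraries at -0.116 to 0.063. With 3 libraries per genotype these values cannot decide whether the replicate numbers pair the samples. With the replicate number as a block, 14 endoderm genes were higher and 6 lower, and over all genes 4054 were higher and 3779 lower, against 3904 and 3529 without it. Leaving out 1 library gave 3274 to 4146 genes higher and 2844 to 3839 lower. In the shallowest library 3 counts correspond to 0.375 CPM, which limits Sox17, Hnf4a, Foxa2, Foxq1, Stra6 and Srgn. No 2 libraries agreed within sampling noise. The p-values measure the spread between lines.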
